A study of Mus musculus with 3 samples.

Results

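The genes described here are 8 conduction and pacemaker genes, a list given by name and drawn up with earlier results of these data known: the channel genes Hcn4, Cacna1d, Cacna1g and Kcnh7, the transcription factor genes Tbx3, Tbx18 and Shox2, and the adhesion gene Cntn2. They are 8 of the 36167 features in the deposited matrices, and each was read per pool, per cell class and per cardiomyocyte cluster in nuclei with at least 1000 UMIs (unique molecular identifiers, 1 per captured RNA molecule) and at most 5% mitochondrial UMIs. The study profiled nuclear RNA of aortic valve structures, the valve with the surrounding aortic root, from mice at postnatal day 1 with the gene expression part of a 10x Genomics kit that also reads open chromatin. There was 1 group of 3 pools, each of 22 to 24 flash-frozen aortic roots, so each pool averages many animals and the p-values below measure only the spread between the pools. Every pool came from strain RBRC11098, written B6.Cg-Scx<tm1.1(EGFP)Skom, an EGFP allele of the tendon and valve transcription factor gene Scx on a B6 background, and no control group or treatment was used here. Nothing in the labels gives the sex of the pups.

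The heartbeat starts in the sinoatrial node, crosses to the ventricles through the atrioventricular node and bundle, and spreads through the bundle branches and Purkinje fibres. Pacemaker cells depolarise on their own through the HCN funny current and through calcium channels that open at low voltage. T-box factors set the identity of these cells by holding back the programme of the fast-contracting chamber muscle. The bundle and its left branch run close beneath the aortic root, and several of these genes are also used outside the heartbeat, in epicardium, valve mesenchyme, vascular mural cells and neurons.

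After filters and doublet removal, 6298, 2993 and 3570 nuclei of pools 1, 2 and 3 were analysed, with a median of 4303.5, 4777 and 3341 UMIs per nucleus. Pools shared few cell barcodes (34, 28 and 13 between pairs of pools). The limit on mitochondrial UMIs removed unequal shares, 28.6%, 41.8% and 14.1% of deposited nuclei exceeding it in pools 1, 2 and 3. Clustering without the 8 genes or any other listed conduction gene gave 27 clusters, 23 of which could be named from marker genes into 11 classes. Of these, 9 classes had at least 20 nuclei in every pool. The cardiomyocyte-like class held 962, 566 and 762 nuclei. Its cardiomyocyte marker genes summed to 25645 ± 2135 CPM (UMIs scaled to a fixed total per library, SD, n = 3 pools). In the other 8 classes the same sum averaged 511 in mesothelial-like nuclei and up to 3723 in macrophage-like nuclei.

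**Figure D1:**
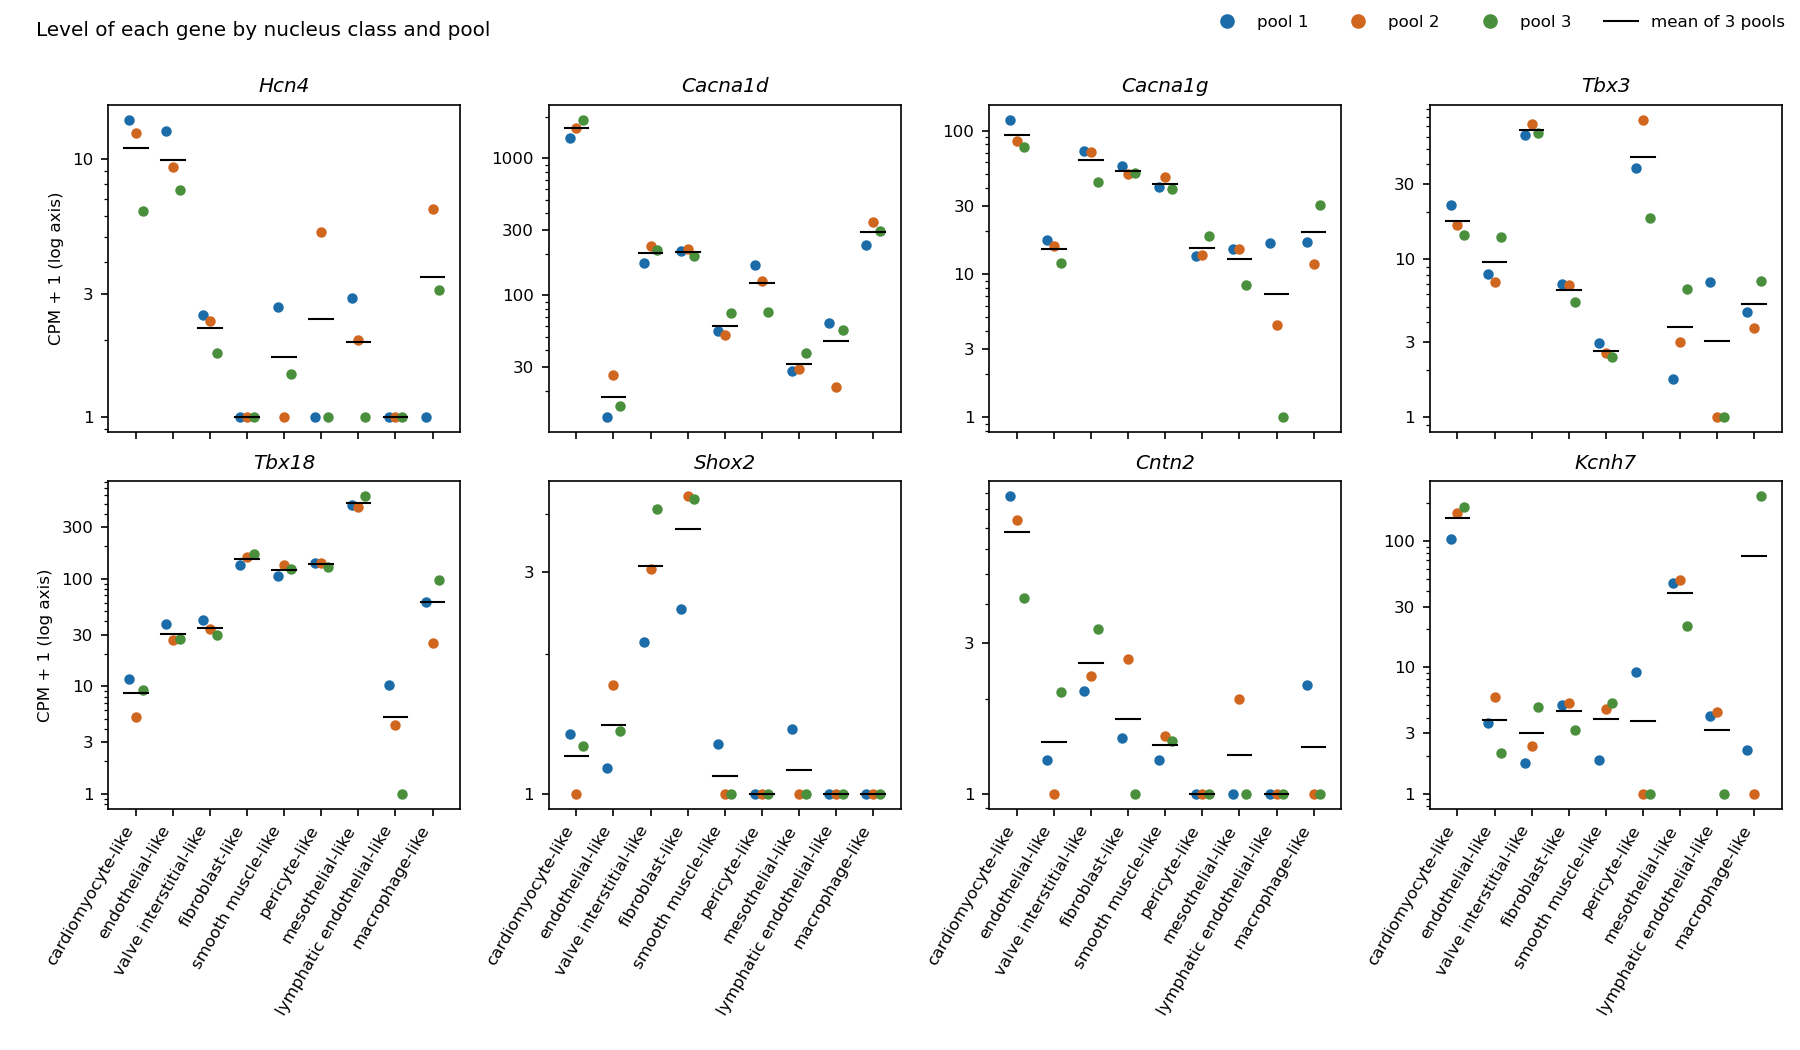
Level of each of the 8 genes as CPM + 1 on a log axis in each of the 9 classes, with 1 point per pool and a line at the mean of the 3 pools. Cacna1d and Kcnh7 were highest on average in cardiomyocyte-like nuclei, Tbx3 in valve interstitial-like nuclei and Tbx18 in mesothelial-like nuclei, while the Hcn4 points of cardiomyocyte-like and endothelial-like nuclei overlapped.

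Among the 6 genes with enough counts to test, 5 were higher in cardiomyocyte-like nuclei than in the mean of the other classes and 1, Tbx18, was lower. This compares with 34.0% of all 14096 tested genes called higher and 33.1% called lower in that class, since cardiomyocyte-like nuclei differ from the rest in most genes. Over the 9 classes, 33 of 52 gene and class pairs passed edgeR's quasi-likelihood test at an adjusted p (Benjamini-Hochberg over all tested genes) under 0.05, 20 higher and 13 lower. By class, the share of all tested genes called in either direction ran from 12.3% in pericyte-like to 67.1% in cardiomyocyte-like nuclei. The classes were made from the same nuclei, so the test says how steady a difference was over pools. Shox2, a sinoatrial node factor, and Cntn2 were too sparse for the test.

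Hcn4 encodes the main funny-current channel of pacemaker cells. Cardiomyocyte-like nuclei held 13.2, 11.6 and 5.29 CPM of Hcn4 in pools 1, 2 and 3, from 76, 47 and 20 UMIs. Endothelial-like nuclei held 11.9, 8.33 and 6.59 CPM, from 86, 35 and 18 UMIs. Both classes were highest in pool 1 and lowest in pool 3, and their ranges overlapped, so neither can be placed above the other. The next class, macrophage-like, averaged 2.497 ± 2.72 CPM from 3 UMIs. Its highest pool, at 5.39, lay below every endothelial-like pool but above the lowest cardiomyocyte-like pool (5.29). Valve interstitial-like nuclei averaged 1.21 ± 0.38 CPM. Hcn4 had no UMI in 997 fibroblast-like nuclei, a count that allows up to 0.301% of nuclei with one, and none in 119 lymphatic endothelial-like nuclei, which allows up to 2.52%.

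Hcn4 was higher by a log2 difference of 2.87 in cardiomyocyte-like nuclei (SE 0.31, edgeR adjusted p = 3.76e-09) and of 2.19 in the endothelial-like class (SE 0.32, edgeR adjusted p = 1.92e-06) when the fibroblast-like and lymphatic endothelial-like classes, both at 0, were left out, a setting chosen after seeing the data. Only libraries of the cardiomyocyte-like and endothelial-like classes, where Hcn4 was high, could bring it over the count filter. These values therefore describe the levels above and do not add support to them. Without pool 1, Hcn4 did not reach the count minimum and gave no class value. With the fibroblast-like and lymphatic endothelial-like classes in the fit the values were 4.04 and 3.41, which depend on how a count of 0 is treated. In endothelial-like nuclei Hcn4 was the 1 member of 6 called higher, beside 22.6% of all tested genes, and 3 were called lower, beside 15.6%, with 38.2% called in either direction. After every nucleus was thinned to 1000 UMIs, 0.845% ± 0.52 of cardiomyocyte-like and 0.946% ± 0.54 of endothelial-like nuclei held an Hcn4 UMI. Without thinning the shares were 4.39% ± 1.86 at a median depth of 5429 UMIs and 3.53% ± 1.32 at 4442 UMIs. In valve interstitial-like nuclei, whose median depth was 3609 UMIs, the unthinned share was 0.487%.

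Cacna1d encodes the CaV1.3 L-type calcium channel of sinoatrial pacemaking, which opens at lower voltage than the main channel of working muscle. Cardiomyocyte-like nuclei held 1412, 1664 and 1909 CPM of Cacna1d, far above every pool of the macrophage-like class (230, 340 and 294 CPM). Fibroblast-like nuclei (206 ± 11.5 CPM) and valve interstitial-like nuclei (204 ± 29.6 CPM) overlapped. Endothelial-like nuclei were lowest on average at 11.9, 25.2 and 14.6 CPM, below every pool of the mesothelial-like class. Their range overlapped that of the lymphatic endothelial-like class, whose lowest pool held 20.4 CPM. Cacna1d was higher in cardiomyocyte-like nuclei by a log2 difference of 4.73 (SE 0.11, adjusted p = 1.76e-26) and lower in endothelial-like nuclei by a log2 difference of -3.16. Thinned nuclei held a Cacna1d UMI in 51.2% ± 3.69 of the cardiomyocyte-like class and 1.20% ± 0.64 of the endothelial-like class, and unthinned nuclei in 77.4% ± 3.40 and 5.48%.

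Macrophage-like nuclei also carried Cacna1d, with a log2 difference of 1.28 from the mean of the rest. Together with Kcnh7 this made 2 of 6 members called higher there, beside 16.3% of all tested genes. The class also held the most cardiomyocyte marker RNA outside the cardiomyocyte-like class, 1670 to 5223 CPM over the pools against 864 ± 143 in endothelial-like nuclei. The part of that RNA in the macrophage-like Cacna1d level was not tested.

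Cacna1g encodes the CaV3.1 T-type calcium channel, which carries current at the most negative voltages in nodal cells. It measured 118, 84.1 and 76.4 CPM in cardiomyocyte-like nuclei, above every pool of the next class, valve interstitial-like, at 71.2, 70.3 and 42.8 CPM. Fibroblast-like nuclei, at 55.8, 48.9 and 49.6 CPM, overlapped the valve interstitial-like range. The log2 difference in cardiomyocyte-like nuclei was 2.52 (SE 0.11, adjusted p = 1.03e-18). In thinned nuclei, 8.77% ± 2.67 of the cardiomyocyte-like class and 1.80% ± 0.52 of the endothelial-like class held a Cacna1g UMI. Cacna1g was also higher in valve interstitial-like (1.43), fibroblast-like (1.05) and smooth muscle-like (0.81) nuclei, and the smooth muscle-like call was lost with no limit on mitochondrial UMIs (0.24) and at a minimum of 500 UMIs (0.16). It was lower in lymphatic endothelial-like (-2.06), endothelial-like (-0.99) and mesothelial-like (-0.94) nuclei. The first of these calls was lost without pool 2 (-1.69) and became -3.79 without pool 1, and the other two were lost without pool 1 (-0.89 and -0.95).

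Kcnh7 encodes a potassium channel of the ERG family, known mostly from neurons. Cardiomyocyte-like nuclei held 103, 165 and 183 CPM. The macrophage-like class overlapped that range, at 1.21, 0 and 225 CPM, with pool 3 above every cardiomyocyte-like pool, and every other class lay below it. The cardiomyocyte-like class had a log2 difference of 5.03 (SE 0.31, adjusted p = 2.56e-15). The RNA was concentrated in few nuclei. Its 1951 UMIs came from 233 of 2290 cardiomyocyte-like nuclei, 35.0% of them from the 10 highest nuclei, and a single nucleus held 144. Cacna1g, by contrast, spread 1307 UMIs over 731 nuclei. The share of thinned nuclei with a Kcnh7 UMI was 5.55% ± 0.93 in the cardiomyocyte-like class and 0.263% ± 0.28 in the endothelial-like class.

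Mesothelial-like nuclei also carried Kcnh7, at 45.0, 47.6 and 20.2 CPM, with a log2 difference of 3.01 (SE 0.55, adjusted p = 2.26e-05). It was detected there in 18, 11 and 4 nuclei, 33 of 366, a thinned share of 4.35% ± 1.28 and an unthinned share of 8.92%, beside 10.4% of cardiomyocyte-like nuclei unthinned. The median depth of mesothelial-like nuclei was 10013 UMIs. In pool 1, the 4 highest nuclei gave 76 of 119 UMIs in the mesothelial-like class and 209 of 591 in the cardiomyocyte-like class. In macrophage-like nuclei the 3 pools held 1, 0 and 107 UMIs, and 103 of the 107 in pool 3 came from 4 nuclei. The macrophage-like value of 3.13 (SE 0.65, adjusted p = 3.40e-04) turned to -2.85 (SE 1.13, adjusted p = 0.0735) without pool 3. The call thus rested on pool 3.

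Tbx3 encodes the T-box repressor that marks the nodes and the atrioventricular bundle and keeps chamber genes off there. Its highest level was in valve interstitial-like nuclei, the mesenchymal cells of the leaflets, at 60.7, 71.7 and 62.2 CPM. Pericyte-like nuclei followed at 37.1, 75.6 and 17.3 CPM from 30 UMIs, a range that overlapped both the valve interstitial-like and the cardiomyocyte-like class. Cardiomyocyte-like nuclei held 21.003, 15.6 and 13.2 CPM, above every endothelial-like pool (7.04, 6.19 and 12.8 CPM).

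The log2 difference of Tbx3 was 3.44 in valve interstitial-like nuclei (SE 0.20, adjusted p = 5.00e-15) and 1.69 in the cardiomyocyte-like class (SE 0.23, adjusted p = 1.19e-07). Tbx3 was among 3 of 6 members called higher in the valve interstitial-like class, beside 19.7% of all tested genes, and 1 was called lower, beside 14.8%. It was 2.78 higher in pericyte-like nuclei (SE 0.44), where 2 of 6 members were called higher beside 8.40% of all tested genes and 0 lower beside 3.93%, but with no limit on mitochondrial UMIs the value was 0.78 and not called (adjusted p = 0.113), and at a minimum of 500 UMIs it was 1.15. In smooth muscle-like (-2.25) and mesothelial-like (-2.18) nuclei Tbx3 was lower, and without pool 1 neither was called (-1.99 and -0.77), with standard errors too large for these values to be read (4223 and 27.4). The lymphatic endothelial-like class, part of both comparisons, held 2 Tbx3 UMIs in pool 1 and 0 in pools 2 and 3. Thinned shares of nuclei with a Tbx3 UMI were 5.12% ± 1.28 in valve interstitial-like nuclei and 1.44% ± 0.02 in cardiomyocyte-like nuclei.

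Tbx18 encodes a T-box factor that builds the head of the sinoatrial node and is also a marker of epicardium and mural cells. Mesothelial-like nuclei, which cover the outside of the root, held 479, 461 and 585 CPM. Fibroblast-like (153 ± 17.5 CPM), pericyte-like (135 ± 7.06 CPM) and smooth muscle-like (120 ± 13.3 CPM) nuclei came next, each overlapping its neighbour in this order. Cardiomyocyte-like nuclei held 10.6, 4.20 and 8.19 CPM, below every endothelial-like pool (36.7, 26.0 and 26.4 CPM).

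Tbx18 was higher in mesothelial-like nuclei by 3.81 on the log2 scale (SE 0.13), in fibroblast-like by 1.61, in pericyte-like by 1.41 and in smooth muscle-like by 1.38. It was lower in cardiomyocyte-like nuclei by a log2 difference of -2.70 (SE 0.35, adjusted p = 4.25e-08) and in lymphatic endothelial-like nuclei by -3.87, or -2.28 with doublets kept. Endothelial-like (-0.97) and valve interstitial-like (-0.73) nuclei were called lower too, the first no longer without pool 1 (-1.01) and the second no longer without pool 1 (-0.71), without pool 3 (-0.65) or at a minimum of 500 UMIs (-0.54). In each of these classes the members called higher were 2 of 6 in mesothelial-like (32.7% of all tested genes), 3 of 5 in fibroblast-like (16.6%) and 2 of 6 in smooth muscle-like nuclei (21.9%, and 41.2% in either direction). The members called lower were 3 of 6 in mesothelial-like (25.7%), 2 of 6 in smooth muscle-like (19.3%), 3 of 5 in lymphatic endothelial-like (10.6%) and 0 in fibroblast-like nuclei (11.6%).

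Shox2, which acts upstream in the sinoatrial node, was close to undetected. Cardiomyocyte-like nuclei held 3 Shox2 UMIs in all, 2, 0 and 1 over the pools. Fibroblast-like (2.72 ± 1.07 CPM) and valve interstitial-like (2.09 ± 1.00 CPM) nuclei held 10 UMIs each, and the annotated gene Rsrc1 overlaps Shox2, so that these reads cannot be assigned with certainty. Tbx18 and Shox2, both markers of the sinoatrial node, were thus low in the cardiomyocyte-like class.

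Cntn2 encodes contactin 2, an adhesion protein that marks the Purkinje network and bundle branches. Cardiomyocyte-like nuclei held 7.81, 6.43 and 3.17 CPM, above every pool of the next class, valve interstitial-like, at 1.12, 1.37 and 2.33 CPM from 8 UMIs. The 83 Cntn2 UMIs of the cardiomyocyte-like class came from 40 nuclei, 51.8% of them from the 10 highest. Lymphatic endothelial-like and pericyte-like nuclei held none.

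Within the cardiomyocyte-like class the genes did not spread evenly. The class had 3 clusters, here called by number and leading genes. Cluster 0 (D830005E20Rik, Fgf13, Ryr2, Fhl2) held 637, 396 and 507 nuclei of pools 1, 2 and 3, cluster 11 (Lrrc4c, Erc2, Kcnh7, Lrtm1, Cacna1d) held 205, 105 and 186, and cluster 16 (Ryr3, Cpne5, Fgf12, Tbx5, Cacna2d2) held 120, 65 and 69. Their median depths were 5498, 5080 and 5756 UMIs per nucleus. The values by cluster are descriptions with no test, because clusters were drawn from the same nuclei, although none of the listed genes was used to draw them.

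**Figure D2:**
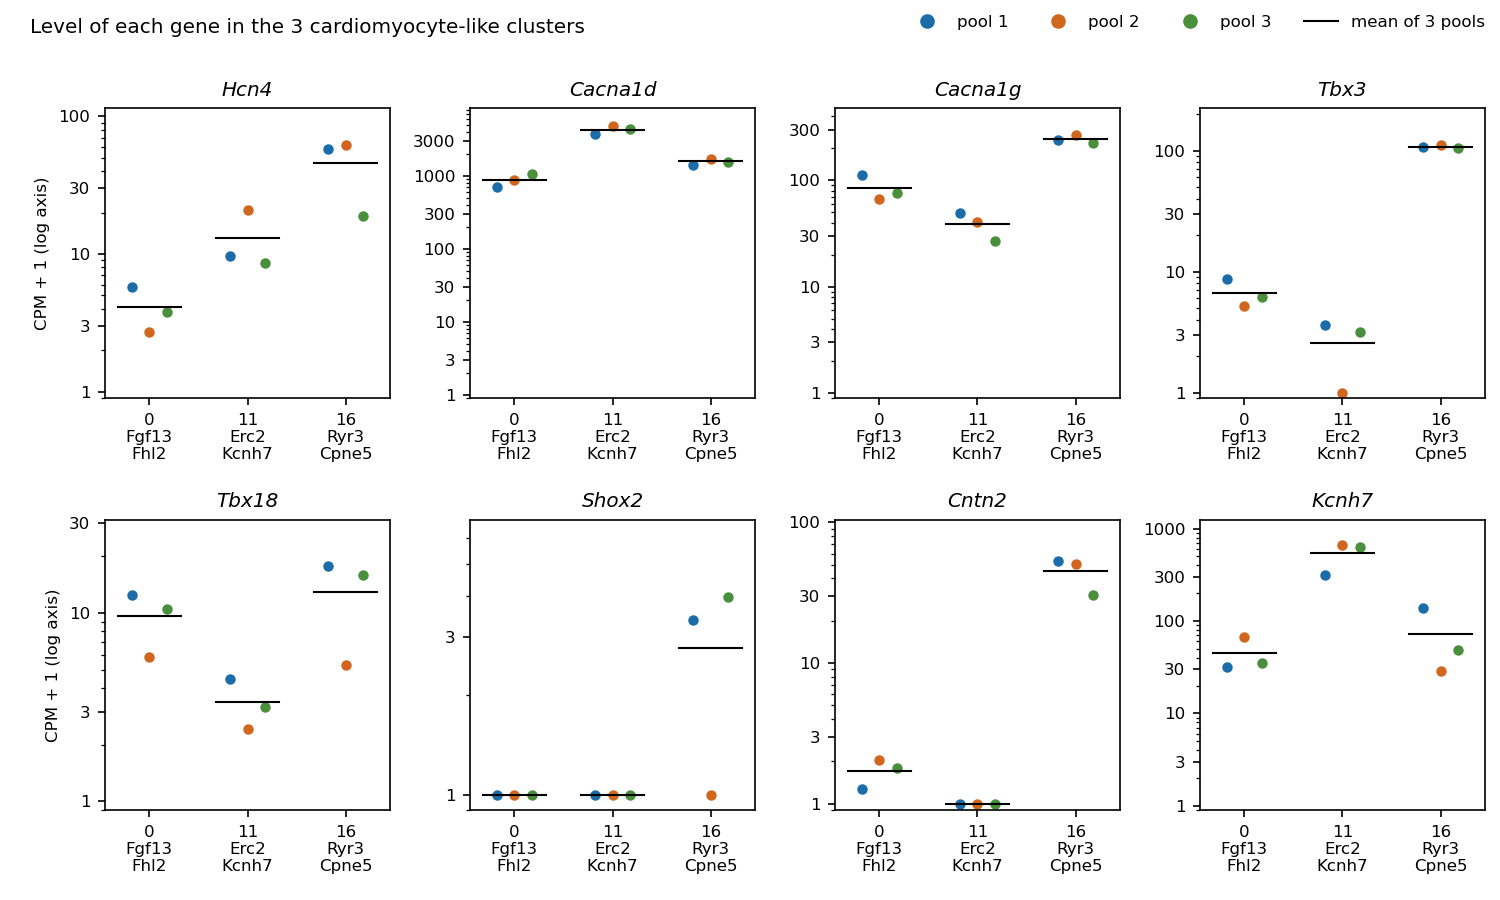
Level of each of the 8 genes as CPM + 1 on a log axis in cardiomyocyte-like clusters 0, 11 and 16, with 1 point per pool and a line at the mean of the 3 pools. Tbx3, Cntn2 and Cacna1g were higher in every pool of cluster 16 than in any pool of the others, and Cacna1d and Kcnh7 in every pool of cluster 11.

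Tbx3, Cntn2 and Cacna1g were highest in cluster 16. Tbx3 measured 106, 110 and 104 CPM there, against 7.69, 4.16 and 5.15 in cluster 0 and 2.61, 0 and 2.16 in cluster 11. Cntn2 measured 52.4, 49.6 and 29.7 CPM in cluster 16 and at most 1.04 in any pool of cluster 0, and no Cntn2 UMI was found in cluster 11. Cacna1g measured 238, 266 and 223 CPM in cluster 16, above the 112, 65.6 and 75.3 of cluster 0 and the 47.8, 40.0 and 25.9 of cluster 11. These 3 of the 8 genes lay above every pool of the other clusters, beside 9.27% of 24761 genes with a UMI in these nuclei.

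Hcn4 was also highest in cluster 16 within each pool, but its range there overlapped that of cluster 11. Cluster 16 held 57.2, 60.4 and 17.8 CPM from 48, 28 and 6 UMIs, with exact Poisson 95% intervals, covering counting error only, of 42.2 to 75.8, 40.2 to 87.4 and 6.54 to 38.8. Cluster 11 held 8.70, 19.98 and 7.57 CPM and cluster 0 held 4.77, 1.74 and 2.78. Pool 3 of cluster 16 lay below pool 2 of cluster 11. The ranges of the Hcn4 levels did not overlap in the matching clusters with doublets kept (at least 22.9 against at most 9.62), at resolution 2 (30.9 against 19.2) or with the lists used in clustering (23.4 against 19.4). They overlapped with no limit on mitochondrial UMIs (a lowest cluster 16 value of 17.9 against a highest of 24.9 in cluster 11) and at a minimum of 500 UMIs (18.9 against 23.8). Shox2 was seen only here among the 3 clusters, with 3 UMIs.

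In cluster 11, Cacna1d and Kcnh7 were highest. Cacna1d measured 3722, 4864 and 4364 CPM there, against 704, 875 and 1053 in cluster 0 and 1430, 1738 and 1577 in cluster 16. Kcnh7 reached 314, 662 and 639 CPM, against 30.8, 65.9 and 34.1 in cluster 0 and 136, 28.1 and 47.5 in cluster 16. These were the 2 genes above every pool of the other clusters, beside 2.66% of all genes, while Tbx3, Tbx18, Cntn2 and Cacna1g lay below, beside 2.37%. In cluster 0 no member lay above the others, beside 2.73% of all genes, and Cacna1d and Hcn4 lay below, beside 2.69%. No member lay below the others in cluster 16, beside 3.63%.

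Tbx18 stayed low in all 3 clusters, at 11.4, 4.86 and 9.52 CPM in cluster 0, 3.48, 1.43 and 2.16 in cluster 11, and 16.7, 4.32 and 14.8 in cluster 16. Markers of other cell types also differed between the clusters. Neuron markers summed to 129 ± 33.4 CPM in cluster 11, of which Snap25 gave 118, with Th, Dbh, Prph and Chrna3 at 0, and to 16.4 and 24.8 in clusters 0 and 16. Fibroblast markers summed to 149, 194 and 353 CPM and endothelial markers to 39.8, 51.8 and 68.1 CPM in clusters 0, 11 and 16. Cardiomyocyte markers summed to 27118 ± 2472, 24490 ± 2117 and 19285 ± 1812 CPM, and the part of these differences in the member levels was not tested.

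Hcn4, Tbx3 and Cntn2 were detected together in some nuclei of cluster 16. At least 2 of Hcn4, Tbx3 and Cntn2 were detected in 24.2%, 16.9% and 5.80% of cluster 16 nuclei in pools 1, 2 and 3, with all 3 in 7, 4 and 0 nuclei. None of the 3 genes was detected in 60, 32 and 42 nuclei. A single nucleus of cluster 0 and none of cluster 11 held at least 2. Over the nuclei of cluster 16 from all pools, Tbx3 was detected in 30 of the 54 nuclei with Hcn4 (55.6%) and in 28.5% of the 200 without, and Cntn2 in 31.5% and 8.50%. Kcnh7 went the other way, in 1 of the 54 nuclei with Hcn4 and 18 of the 200 without. The nuclei with Hcn4 were slightly deeper, at a median of 5914.5 UMIs against 5658.

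Splitting the nuclei more finely, at a clustering resolution of 2, kept part of cluster 16 together. Of the 254 nuclei of cluster 16, 120 formed a smaller cluster led by Ryr3 and Cpne5, with 62, 33 and 25 nuclei in the pools. There Tbx3 measured 139, 128 and 131 CPM, Cntn2 measured 91.6, 105 and 54.0 and Hcn4 measured 91.6, 114 and 30.9. Tbx5 measured 997, 908 and 1080 CPM and Gja5, the fast connexin gene of the bundle branches and atria, 82.7, 99.8 and 61.7. Gja1, the connexin gene of working muscle, measured 35.8, 23.8 and 0 CPM. The atrial genes Myl7, Myl4, Sln and Nppa were also higher there than in cluster 16 as a whole in every pool, and Bmp10 and Kcna5, the rest of that list, held 0 and 2 UMIs. Myl7 measured 2458, 2096 and 1257 CPM, Myl4 1868, 1459 and 671 CPM and Sln 259, 247 and 139 CPM, and Nppa measured 489, 837 and 224 CPM. A further 46 nuclei formed a cluster of their own that was led by the cell cycle genes Knl1 and Ect2 and stayed unnamed, and 68 and 20 joined 2 other cardiomyocyte clusters.

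The promoters of Hcn4 and Cntn2 are printed because these genes and the T-box gene Tbx3 were high in the same cluster. Each is the 250 bases before the RefSeq start of the gene in build GRCm38.p6, Hcn4 at chr9:58822699-58822948 on the plus strand and Cntn2 at chr1:132542941-132543190 on the minus strand, read 5′ to 3′ in the direction of the gene. The T-box motif searched was AGGTGT, on both strands, and capitals mark its match.
Hcn4: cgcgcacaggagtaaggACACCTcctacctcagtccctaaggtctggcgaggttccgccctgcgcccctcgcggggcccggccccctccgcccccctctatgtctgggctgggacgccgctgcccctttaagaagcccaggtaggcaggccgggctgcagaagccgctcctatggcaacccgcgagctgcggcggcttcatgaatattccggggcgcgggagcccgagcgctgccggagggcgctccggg
Cntn2: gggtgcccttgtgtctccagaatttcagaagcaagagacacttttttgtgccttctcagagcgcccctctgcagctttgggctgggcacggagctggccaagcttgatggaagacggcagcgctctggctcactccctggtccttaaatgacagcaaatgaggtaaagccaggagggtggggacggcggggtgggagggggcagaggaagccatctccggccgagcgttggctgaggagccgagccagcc
The Hcn4 window had 1 match, on the minus strand from 233 to 228 bases before the start, and a GC content of 71.2%, and the Cntn2 window had none and a GC content of 61.2%. Of 32851 RefSeq windows of the same length, 11.8% held the motif. RefSeq windows were matched for 6 of the 8 genes, with 7 windows in all because Cacna1d has a second start. None of the other windows held AGGTGT, and none of the 7 held the NK2 motif TNAAGTG or the GATA motif AGATAA, which 10.1% and 9.99% of all windows held. A match is only a run of letters, and no binding was measured.

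**Figure D3:**
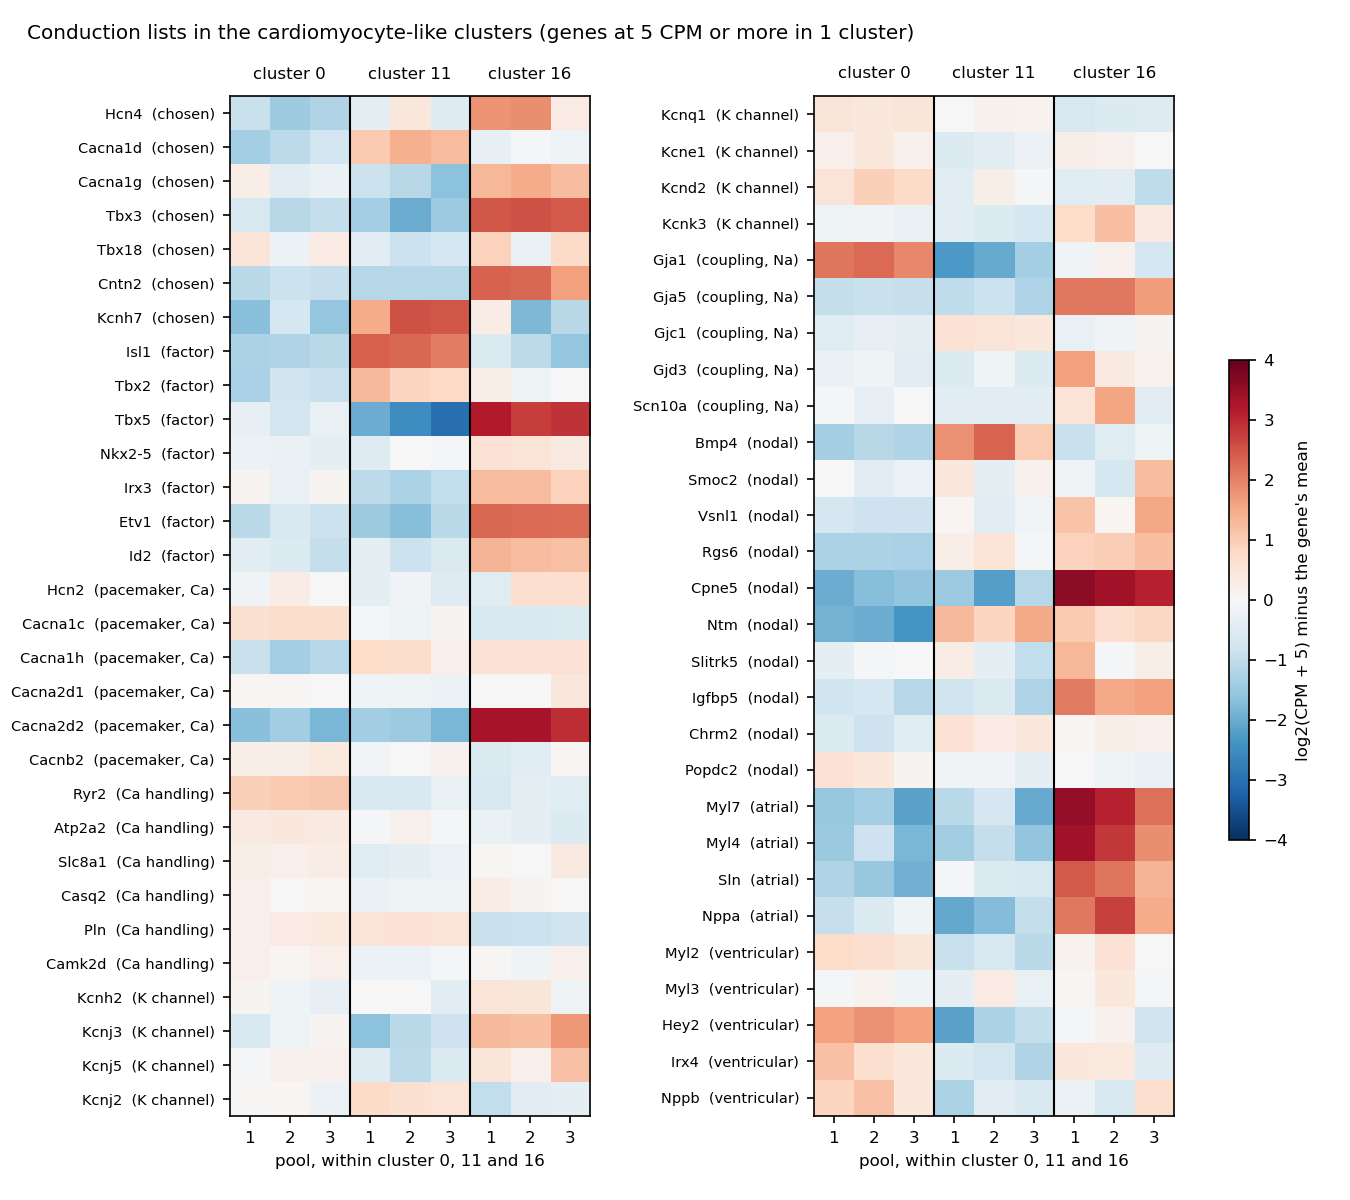
Heat map of the member genes (marked chosen) and the other conduction and chamber genes that reached 5 CPM in a cardiomyocyte-like cluster, with a few left out, each cell being log2(CPM + 5) of a pool in cluster 0, 11 or 16 minus the mean of the gene, red above and blue below. Tbx5, Etv1, Cacna2d2, Cpne5 and Gja5 were highest in every pool of cluster 16, Isl1 and Tbx2 in cluster 11, and Gja1 in cluster 0.

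Of the 58 other genes of the conduction programme, in 8 lists also drawn up with earlier results known, 20 lay above every pool of the other clusters in cluster 16, 9 in cluster 0 and 7 in cluster 11, beside the 9.27%, 2.73% and 2.66% of all genes given above. Below were 5, 9 and 15, beside 3.63%, 2.69% and 2.37%. In cluster 16, 6 of 8 conduction transcription factor genes lay above every pool of the other clusters, among them Tbx5, Etv1, Id2, Irx3 and Nkx2-5. Tbx5, which activates bundle genes, measured 600, 451 and 490 CPM there and at most 49.6 elsewhere. Etv1, a factor of fast-conducting atrial and Purkinje muscle, measured 348, 345 and 333 CPM and at most 42.7 elsewhere. The calcium channel subunit gene Cacna2d2 measured 167, 166 and 131 CPM and Cpne5, a gene of the ventricular conduction system, 267, 231 and 193, against at most 1.74 and 5.40 elsewhere.

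Of the other lists in cluster 16, 3 of 11 nodal associated, 3 of 8 potassium channel, 2 of 8 pacemaker and calcium channel and 2 of 6 coupling and sodium channel genes lay above. Below every pool of the other clusters lay 2 of the 8 potassium channel genes, Kcnq1 and Kcnj2, and 1 of the 8 pacemaker and calcium channel genes, Cacna1c. Gja5 measured 45.3, 45.3 and 32.7 CPM in cluster 16, and at most 1.43 elsewhere. The atrial genes Myl7 (1337, 980 and 538 CPM), Myl4 (1039, 717 and 359 CPM), Sln (139, 112 and 62.4 CPM) and Nppa (273, 421 and 175 CPM) were 4 of 6 of their list above the other clusters. Each had its lowest cluster 16 value in pool 3, as Hcn4 did. None of the 5 ventricular and none of the 6 calcium handling genes lay above, and Pln and Atp2a2, which regulate calcium uptake, lay below.

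In cluster 11, where Cacna1d and Kcnh7 were high, other factors stood above: Isl1, a factor of the outflow tract and sinoatrial node, at 71.3, 67.1 and 56.2 CPM, and Tbx2, a repressor in atrioventricular canal and outflow tract muscle, at 44.4, 31.4 and 30.3. Bmp4 (51.3, 75.7 and 27.0 CPM), Gjc1, Chrm2, Kcnj2 and Pln also stood above. By list, 1 of 8 potassium channel genes lay above and 4 below, 1 of 6 calcium handling genes above and 2 below, and none of the 5 ventricular genes above and 3 below. The conduction transcription factors had 2 of 8 above and 2 below, the nodal associated genes 2 of 11 above and 0 below, and the coupling and sodium channel genes 1 of 6 above and 2 below. Of the pacemaker and calcium channel genes and of the atrial genes, 0 lay above and 1 below. Gja1 (20.01, 25.7 and 43.2 CPM) was low there, against 537, 594 and 466 in cluster 0. Tbx5 was lowest there too, at 12.2, 7.14 and 3.24 CPM. Cluster 0 held the highest Ryr2, the calcium release channel, at 15739, 17034 and 17270 CPM, with Gja1, Hey2 and Kcnq1 above the other clusters as well.

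Across classes, 49 of these 58 genes could be tested in the cardiomyocyte-like class, 44 were higher and 4 lower, against the 34.0% and 33.1% of all genes given above. All 8 potassium channel genes (median log2 difference 4.26), all 6 calcium handling genes (3.96) and all 6 tested pacemaker and calcium channel genes (3.35) were higher. The largest differences were those of Kcnj3 (6.84), the acetylcholine-activated potassium channel, and the ventricular factor gene Irx4 (6.67). Of the nodal associated genes 5 were higher and Igfbp5 (-1.85), Bmp4 (-1.52) and Smoc2 (-2.65) were lower, and of the factors Id2 (-1.64) was lower. With the haemoglobin-led cluster counted as cardiomyocyte-like, a setting chosen after seeing the data, Smoc2 was at -1.25 and Id2 at -0.91. Gja5 differed by 0.22 (SE 0.27, adjusted p = 0.508) and was not called.

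Outside the cardiomyocyte-like class, the Hcn4 level was highest in 1 endothelial-like cluster, which held 76 of all 344 Hcn4 UMIs (22.1%) in 1.87% of the nuclei. Cluster 19, led by Dlgap2, Cntnap5a and Cntnap4, held 110, 70 and 61 nuclei, and its Hcn4 level was 74.8, 47.1 and 40.3 CPM from 48, 18 and 10 UMIs. The exact Poisson 95% intervals were 55.1 to 99.1, 27.9 to 74.4 and 19.3 to 74.1. Every pool of the other 6 endothelial-like clusters lay between 0 and 7.95 CPM, so the cluster stood clear in all 3 pools. Its average of 54.0 ± 18.3 CPM overlapped that of cardiomyocyte cluster 16 (45.1 ± 23.7).

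**Figure D4:**
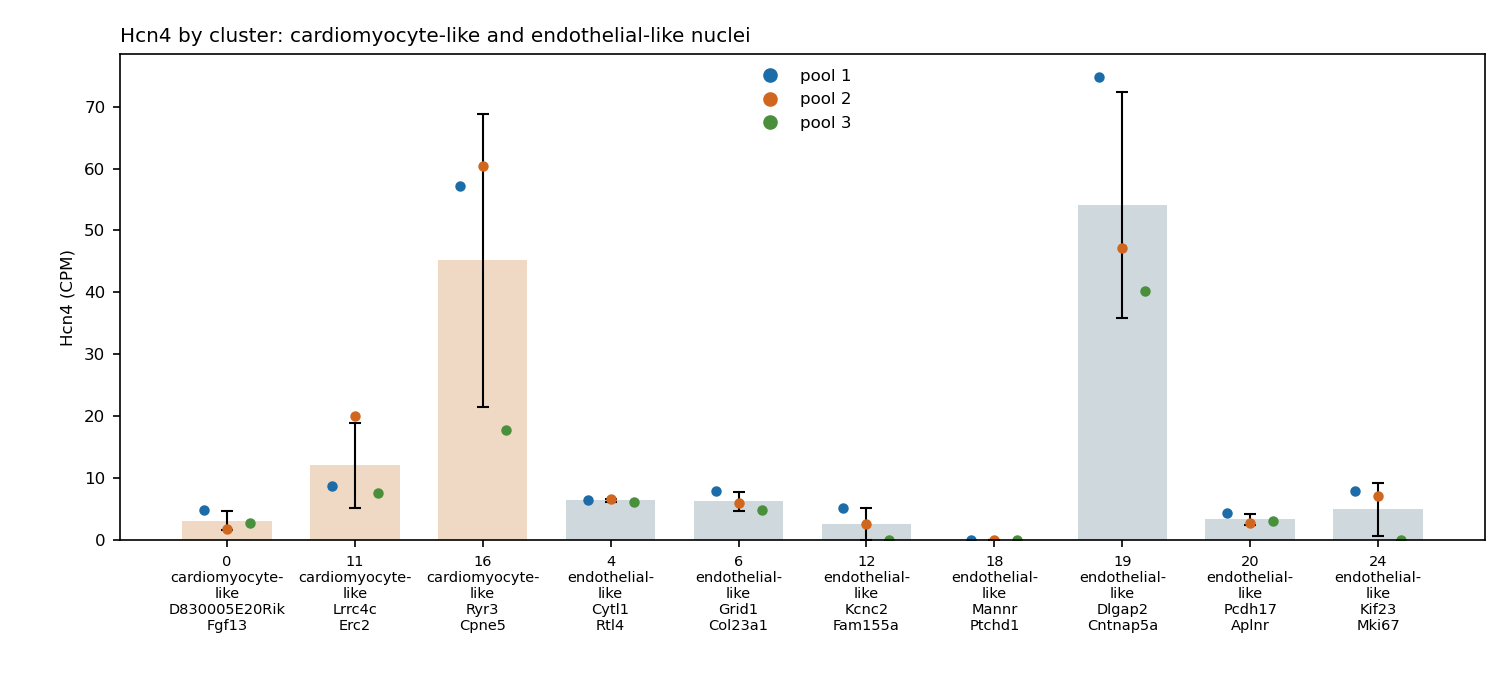
Hcn4 level (CPM) in the cardiomyocyte-like and endothelial-like clusters, named by number and leading genes, with 1 point per pool, bars at the mean of the 3 pools and whiskers of 1 SD. Clusters 16 and 19 were the highest on average in their classes, at 45.1 and 54.0 CPM.

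The other pacemaker genes did not accompany Hcn4 in cluster 19. Cacna1d measured 7.79, 18.3 and 8.06 CPM and Tbx3 4.67, 2.62 and 20.1 CPM. Cardiomyocyte markers summed to 855 ± 95.1 CPM in cluster 19, against 602 ± 151 in endothelial-like cluster 4 and 27118 in cardiomyocyte cluster 0. Endothelial markers summed to 3941 ± 107 CPM, and fibroblast markers to 2132 CPM, of which Pdgfra gave 1034.

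Tbx3 had its own endothelial and valve subsets. Endothelial-like cluster 20 (Pcdh17, Aplnr, Fabp4) held 49.4, 49.2 and 75.3 CPM of Tbx3, above every pool of the other endothelial-like clusters. Of the valve interstitial-like clusters, cluster 3 (Rmst, Pcdh15) held 79.0, 94.7 and 77.4 CPM and cluster 10 (Abi3bp) 23.7, 24.9 and 20.4 CPM. The higher cluster lay above the lower in all 3 pools.

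To see which genes were detected with Hcn4 in the same nuclei, each cardiomyocyte-like nucleus with an Hcn4 UMI was matched to 1 of the same pool with none and the nearest total. This gave 58, 27 and 18 pairs with median totals of 6127.5, 5831 and 4564.5 UMIs and 6127, 5831 and 4562.5 UMIs. Nuclei with Hcn4 held 106, 47 and 11 UMIs of Cacna1g against 52, 7 and 6 without, a log2 difference of 1.43 (SE 0.33, edgeR adjusted p = 0.0131). The call was lost under the DESeq2 test, without the replicate block, within clusters (0.69), and without pool 1 (2.004), pool 2 (0.96) or pool 3 (1.48). Cacna1g was the 1 of 2 testable members called higher, beside 3.41% of 3544 genes called higher, 1.86% called lower and 5.28% in either direction. Tbx3 (49, 19 and 2 UMIs with, 7, 3 and 3 without) and Cntn2 (23, 19 and 0 with, 2, 0 and 0 without) were too sparse to test. Both were higher beside Hcn4 in pools 1 and 2 and not in pool 3.

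**Figure D5:**
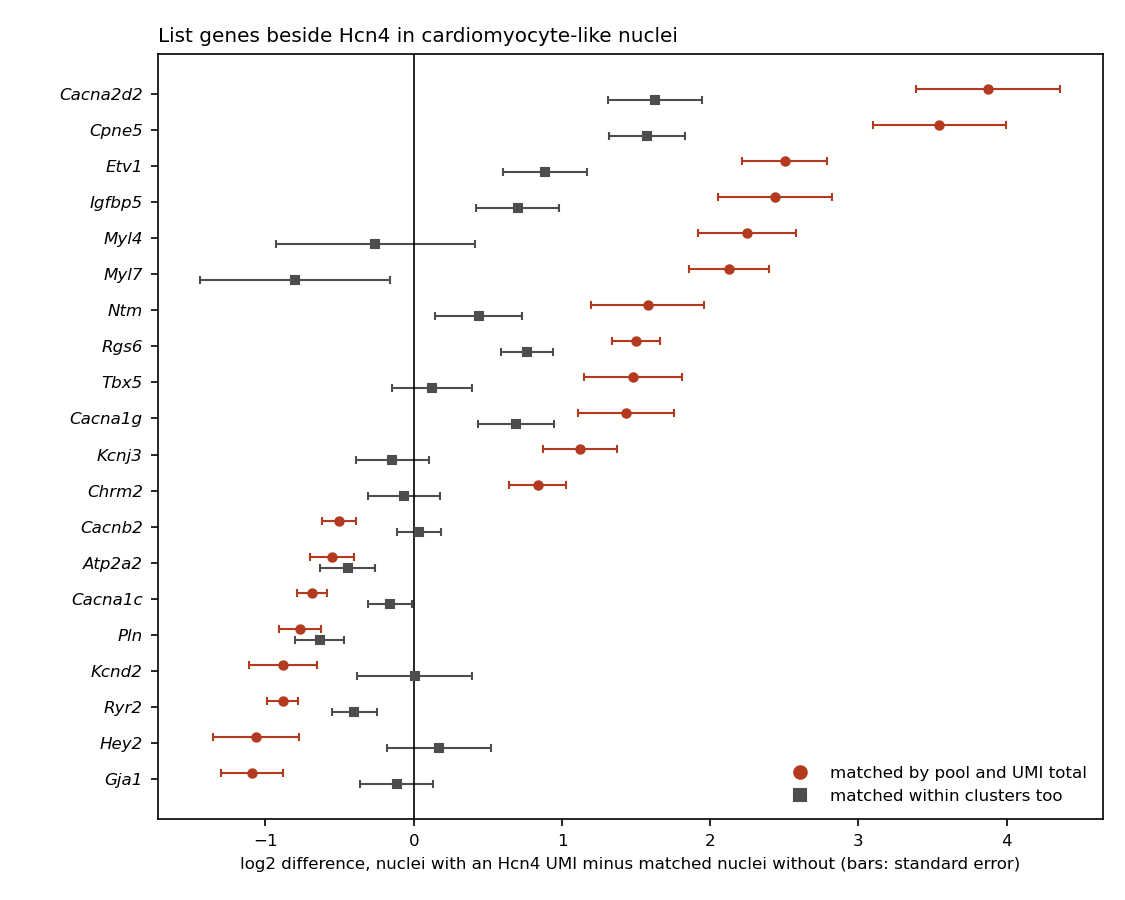
Log2 difference between cardiomyocyte-like nuclei with an Hcn4 UMI and matched nuclei without for Cacna1g and 19 of the listed genes called, with whiskers of 1 SE, matched by pool and UMI total (circles) or within clusters too (squares). The circles of Cacna2d2 and Cpne5 rest on libraries at or near 0 UMIs without Hcn4 and their place is not to be read. Nor is that of Igfbp5, which passed the count filter only through the libraries with Hcn4. Hey2 and Gja1 lay lowest among the circles, and 7 of these 20 genes, Hey2 among them, changed side when matched within clusters.

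Of the genes in the other conduction lists, 32 entered the test beside Hcn4, with 12 called higher and 8 lower. Some of the 12 passed the count filter only through the libraries with Hcn4, where they were high, so that count is not to be read as a result. Cacna2d2 held 83, 45 and 15 UMIs with Hcn4 and 10, 0 and 0 without, and Cpne5 held 117, 71 and 20 with and 18, 0 and 1 without. Both passed the count filter only through the libraries with Hcn4, and the size of their fitted rise depends on how counts of 0 are treated, so it is not given. Igfbp5, with 96, 34 and 6 UMIs with Hcn4 and 17, 3 and 4 without, also passed only through those libraries, and its fitted rise is not given. Also called higher were Etv1 (2.501 on the log2 scale, SE 0.29), Myl4 (2.25), Myl7 (2.13) and Tbx5 (1.48), among others. For Etv1, Myl4, Myl7 and Tbx5 most libraries without Hcn4 lay below the filter level, so these values are descriptions. Lower were Gja1 (-1.09, SE 0.21), Hey2 (-1.06), Ryr2 (-0.88), Kcnd2 (-0.88), Pln (-0.77), Cacna1c (-0.69), Atp2a2 (-0.55) and Cacnb2 (-0.50). Outside the lists, Gm32849, Gm52248, Gabrg3 and Gm20754 had the largest fitted rises, each with 0 in 2 of the 3 libraries without Hcn4. Gabrg3, for example, measured 358, 279 and 140 CPM with and 20.7, 0 and 0 without. These genes passed the count filter only through the libraries with Hcn4, so the order and size of their rises are not to be read. The largest falls were those of Gm38863 (-2.06), Tmem71 (-1.84), Gask1b (-1.69), Ripor2 (-1.63) and Adipor2 (-1.47). Of these genes outside the lists, 6 lost the call under DESeq2, 2 without pool 1, 5 without pool 2, 4 without pool 3 and 7 within clusters. Of the 20 listed genes called, 11 lost the call without pool 1, 12 without pool 2 and 9 without pool 3. Under DESeq2 10 lost it, and without the replicate block 9.

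The matched groups differed in their clusters. The nuclei with Hcn4 fell 28, 21 and 54 into clusters 0, 11 and 16, and the matched nuclei 73, 19 and 11. When pairs were matched within a cluster, 187 called genes became 1 of 3596 by edgeR (0.0278%), beside 240 at an unadjusted p under 0.05. The gene called was Erc2, higher by 1.65 (SE 0.19, adjusted p = 0.0150). Of the 20 listed genes called before, 13 kept their direction within clusters and 7 reversed. The 7 were Cacnb2, Kcnj3, Kcnd2, Chrm2, Hey2, Myl7 and Myl4. Among those that kept it were Cacna2d2 at 1.63 (SE 0.32), Cpne5 at 1.57 (SE 0.26), Etv1 at 0.88 (SE 0.28) and Ryr2 at -0.40 (SE 0.15). The part of the clusters in the differences beside Hcn4 was not tested further.

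The same match for Kcnh7, with 86, 68 and 79 pairs, called far fewer genes. Of 6803 tested, 9 were higher (0.132%) and 3 lower (0.0441%), 0.176% together, and neither of the 2 testable members was among them. The transcript LOC118568563 held 66, 50 and 72 UMIs in nuclei with Kcnh7 and 0 in all 3 pools without. Against a floor of 3 counts per library it was at least 21.1-fold, 16.7-fold and 23.9-fold higher. Reads of Kcnh7 and of this transcript may not be separable if the 2 lie together, which was not analysed here.

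Of the other conduction lists 39 genes were tested beside Kcnh7, and the 3 called were the atrial genes Sln, Myl7 (3.17, SE 0.51) and Myl4 (2.77), all higher. Sln held 107, 26 and 11 UMIs with Kcnh7 and 4, 2 and 4 without. It passed the count filter only through the libraries with Kcnh7, so its fitted rise is not given and its call is not to be read as a test. Pool 1 held most of the RNA of these atrial genes, with 741 UMIs of Myl7 in nuclei with Kcnh7 and 17 without. Myl7 held 156 and 33 in pool 2 and 68 and 27 in pool 3. Without pool 1, Sln was no longer called, Myl7 was at 1.87 and Myl4 at 1.68. The Myl7 call was lost without pool 2 (3.71), and DESeq2 called neither Myl7 nor Myl4. Ryr3 (334, 74.8 and 310 CPM with Kcnh7, 0, 11.2 and 37.6 without) and D030025E07Rik (3.14) were also higher, and Thsd7a (-1.22), Eda (-1.002) and 2610307P16Rik (-0.95) were lower. Nuclei with Kcnh7 fell 107, 107 and 19 into clusters 0, 11 and 16 and the matched nuclei 156, 54 and 23. Matched within clusters, 8 of 6818 genes (0.117%) were called. Gpm6a (1.35), Myl4 (1.33) and Ryr3 (1.27) were higher, as were LOC118568563 and Sln. The fitted value of LOC118568563 is not given, since it had almost no UMIs without Kcnh7, and that of Sln is not given either. Myl7 (1.29, edgeR adjusted p = 0.117) was not called, and Dlg2 (-0.89), Thsd7a (-1.04) and Kirrel3 (-1.94) were lower.

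Over the 27 class and pool libraries, the genes whose log2 CPM was most like that of each member were ranked among 14095 others, as a description over libraries that share pools and depth. For Hcn4 they were Fstl4 (Pearson r = 0.831), Nt5c3 (0.825) and Hand2os1 (0.814). For Cacna1d they were Homer1 (0.939), Tln2 (0.924) and Cdh2 (0.919), and for Cacna1g BC034090 (0.933), Smim14 (0.871) and Nek1 (0.864). For Tbx3 they were Bmp5 (0.862), Tbx3os1 (0.808) and Neil2 (0.807), and for Tbx18 Cacnb3 (0.916), Prkg2 (0.883) and Gm42339 (0.881). For Kcnh7 they were LOC118568563 (0.934), Gca (0.862) and Ide (0.833). In RefSeq annotation Tbx3os1 overlaps Tbx3 and Gca overlaps Kcnh7, so reads of each pair cannot be told apart where strand use is unknown. Fstl4 averaged 135 ± 25.7 CPM in cardiomyocyte-like and 27.4 ± 8.74 CPM in endothelial-like nuclei.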

How the data were processed

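Nuclei of 3 pools were isolated from frozen tissue, per the labels' protocols. The authors deposited 1 raw matrix of UMI counts per pool, made with Cell Ranger 7.1.0 per the file headers, and the submitters' processing notes name Cell Ranger 7.0.1 and 7.1.0 and build GRCm39. Whether introns or strand were used in counting is not given in the sources used here. The matrices held 21140 nuclei and 96513814 UMIs. Nuclei with at least 1000 UMIs and 300 genes and at most 5% UMIs from the 13 mitochondrial genes were kept.

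Scrublet's automatic threshold marked 0, 2 and 2 nuclei, so the highest scores were removed at 0.8% per 1000 deposited nuclei (895, 283 and 170 marked). Clustering (scanpy 1.11.5, leidenalg 0.10.2, Python 3.11.15) used 2000 variable genes, 30 components, 15 neighbours and resolution 1, without 66 listed genes. A class needed at least 3 of its markers in 10% of a cluster's nuclei at 2-fold (pseudocount 5 CPM). A cluster with 3 or more of another class's markers among its top 10 genes stayed unnamed, a rule added after seeing the data.

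Counts were summed per pool and class and tested in R 4.3.3 with the quasi-likelihood method of edgeR 4.0.16, with TMM scaling and the pool as a block, each class against the mean of the others, with Benjamini-Hochberg adjustment and a threshold of 0.05. Same-numbered libraries come from the same pool, which gives the pairing. The fit was tested on simulated data with 1 common dispersion for all genes. At a 2-fold change it recovered 92.6% of changed genes tested in the cardiomyocyte-like class, 34.9% beside Hcn4 and 52.9% beside Kcnh7. At a 4-fold change it recovered 100%, 100% and 91.5%. Changes near 2-fold could thus be missed in the matched comparisons. Wilson and Poisson intervals (95%) and the floor of 3 counts cover counting error only. Named genes were the members, the listed genes, the 3 most alike genes per member, leading genes of clusters and up to 5 largest rises and falls per matched comparison. The members and lists were chosen with earlier results of these data known. DESeq2 1.42.0, other filters, scalings and left-out pools were tried as alternatives. RefSeq tables of GRCm38.p6 gave promoters and overlaps of genes, and no coordinate was converted. A few genes of the lists are counted in the totals and not reported here by name.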

Additional observations from a re-analysis of the deposited data

Results flagged for a closer look

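Members were also read in 4 clusters that could not be named, 1485 nuclei in all. The main comparisons used none of them, and cluster 8 entered the setting that counted it as cardiomyocyte-like. In 3 of these clusters, counts lay above the level that a count of 0 allows in every pool. Cluster 8, led by haemoglobin genes, held 573 nuclei at a median of 1833 UMIs, with 261 CPM of Cacna1d, 51.3 CPM of Cacna1g and 43.3 CPM of Tbx18. Cluster 9, led by cell cycle genes, held 542 nuclei, with 102 CPM of Cacna1d, 28.5 CPM of Cacna1g, 123 CPM of Tbx18 and 11.7 CPM of Tbx3. Cluster 14 held 345 nuclei at a median of 12308 UMIs, with 439 CPM of Cacna1d, 47.5 CPM of Cacna1g, 50.5 CPM of Kcnh7 and 89.5 CPM of Tbx18. All are means over the 3 pools.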

How the results depend on the processing

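Without the replicate block, that is without the pairing of libraries by pool, the count of member and class calls was 33, as with it, and genes called beside Hcn4 went from 187 to 114 and beside Kcnh7 from 12 to 11. Genes beside Hcn4 were 63 by DESeq2, 288 with no filter, 1 matched within clusters and 43 to 117 with 1 pool left out (43 without pool 1, 58 without pool 2, 117 without pool 3). Genes beside Kcnh7 were 7 by DESeq2, 82 with no filter, 8 matched within clusters and 9 to 24 with 1 pool left out. Member and class calls ran from 25 (without pool 1) to 40 (no filter), and calls of the other conduction lists from 46 to 53 around 48. Of 515 alternative values for single members in a class, 502 kept direction and call, 12 lost the call and 1 reversed: Kcnh7 in macrophage-like nuclei, -2.85 without pool 3, in a range of -2.85 to 4.42. Of 342 for genes in the matched comparisons, 115 lost the call and 7 reversed, all with Hcn4 nuclei matched within clusters: Cacnb2 (0.0325), Kcnj3 (-0.14), Kcnd2 (0.0077), Chrm2 (-0.0650), Hey2 (0.17), Myl7 (-0.80) and Myl4 (-0.26). Without pool 1, Hcn4 fell under the count filter and gave no class value. Of 150 alternative levels of members in single clusters, 29 moved by more than the spread between pools. In the cluster that matches cluster 16, the mean ran from 45.1 to 78.8 CPM for Hcn4 and from 43.9 to 83.4 CPM for Cntn2, highest at resolution 2 in both cases. Of 64 alternative shares of cardiomyocyte-like nuclei with a member UMI, 13 moved, 8 of them without thinning. Depth limits the values of genes with few UMIs, such as the 3 UMIs of Shox2 in cardiomyocyte-like nuclei. The causes were not tested.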

Other observations

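The melanocyte-like class, 74 nuclei, was too small in pool 3 for the class test. Its Tbx3 level was 31.98, 70.8 and 23.2 CPM from 8, 6 and 1 UMIs in 40, 20 and 14 nuclei. The adipocyte-like class held 48, 10 and 1 nuclei. Its Cacna1d level was 176 and 470 CPM in pools 1 and 2, from 73 and 32 UMIs, and its only nucleus of pool 3 held none. Kcnh7 reached 60.4 CPM in pool 1 of this class, from 25 UMIs in 4 nuclei, and pools 2 and 3 held none.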
